A study of Mus musculus with 12 samples.

Results

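The genes described here are 10 regulators of the ATF4-CHOP arm of the stress response: Atf4, Ddit3, Atf3, Atf5, Cebpb, Cebpg, Trib3, Nupr1, Chac1 and Ppp1r15a. They were taken by symbol from a deposited count table of 23366 gene symbols, and a symbol with several transcripts was represented by the transcript with the highest total count. Each was in the table, and each passed the filter on low counts that left 13882 genes for testing. RNA was sequenced from 8 libraries of mouse embryonic fibroblasts (MEFs), connective tissue cells cultured from embryos, in 4 groups of 2. The groups were Carm1 KO cells deprived of glucose for 18 h (KO starved), Carm1 KO cells in nutrient-rich medium (KO rich), wild-type cells deprived of glucose for 18 h (WT starved) and wild-type cells in nutrient-rich medium (WT rich). All cells were C57BL/6 at passage 3 to 5. Cells grew in 10% serum before starvation and in 10% dialyzed serum during it, and the rich libraries carry the label 0 h, so serum, time and glucose changed together and cannot be told apart. The study asked how CARM1, an enzyme that methylates arginines of histone H3 and of other proteins, takes part in gene expression during starvation.

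ATF4 is the transcription factor through which cells answer shortage of amino acids, stress in the endoplasmic reticulum (ER) and other strains. Kinases that phosphorylate the translation factor eIF2 slow protein synthesis in general while letting Atf4 mRNA be translated, so ATF4 activity is set largely at translation, which RNA counts do not measure. ATF4 binds DNA as a dimer with C/EBP proteins and other bZIP factors at composite sites, raises genes of amino acid supply, and raises Ddit3, which encodes CHOP, a factor linked to cell death when stress lasts. Feedback comes from TRIB3, which binds and restrains ATF4 and CHOP, and from GADD34 (gene Ppp1r15a), which directs a phosphatase to eIF2 and so restores translation.

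Gene counts totalled 8447016 to 28155438 per library. Carm1, the targeted gene, had 53.9 and 58.6 CPM (counts scaled to a common library size) in KO starved libraries and 48.1 and 70.8 CPM in KO rich libraries, against 176 and 164 CPM in WT starved and 207 and 204 CPM in WT rich libraries. Each KO library was below each WT library, and Carm1 RNA remained in KO cells; which part of the gene was deleted is not stated in the labels. The KO rich pair stood apart: among 9124 genes at 10 CPM or above, 1626 were over 2-fold apart between its replicates, whereas the other groups had 1 or 2 such genes each. KO rich replicate 1 was the shallowest library, and the levels of the 10 genes in this pair are given for each replicate. Values of other genes that rest on this pair are mostly means, ranges or fitted values. The genotypes differed in much besides Carm1: the X-inactivation RNA Xist had 0 to 6 counts in KO libraries and 18657 to 23751 in WT libraries. Of 12 fibroblast markers, all were above 5 CPM in at least 1 group, with summed levels of 18187 to 18636 CPM in KO starved, 17889 to 21394 in KO rich, 8753 to 8965 in WT starved and 13009 to 13018 in WT rich libraries. The markers moved both ways: Col1a1 averaged 1005 CPM in KO rich and 2791 CPM in WT rich cells, whereas Fn1 averaged 9615 CPM in KO rich and 3368 CPM in WT rich cells. Dcn and Thy1 were close to absent from WT cells: Dcn averaged 1212 and 1663 CPM in KO starved and KO rich cells, against 0.740 and 0.453 CPM in WT starved and WT rich cells, and Thy1 averaged 174 and 129 CPM, against 0.114 and 0.130 CPM. Of 8 endothelial markers, 1 was above 5 CPM, Cdh5. Cdh5 averaged 239 and 140 CPM in KO starved and KO rich cells. In WT starved and WT rich cells it averaged 0.0173 and 0.0357 CPM. Kdr went the other way, with 0.0831 and 0 CPM in KO starved and KO rich cells. In WT starved and WT rich cells Kdr had 3.98 and 1.80 CPM. The summed level of the 8 ran from 242 to 245 CPM in KO starved and 132 to 158 CPM in KO rich libraries. It ran from 3.95 to 5.30 CPM in WT starved and 2.09 to 2.35 CPM in WT rich libraries. Tie1 and Emcn had 0 counts in all 8 libraries. Of 6 neural markers, 3 were above 5 CPM (Tubb3, Nes and Map2). The neural list summed to 750 to 756 CPM in KO starved and 639 to 700 CPM in KO rich libraries. It summed to 226 to 235 CPM in WT starved and 692 to 780 CPM in WT rich libraries. The epithelial, leukocyte and skeletal muscle lists had 1 gene each above 5 CPM (Krt19, Cd68 and Des), and the hepatocyte list had 0. The part of these genotype differences in the results on KO against WT was not tested, and an effect of the Carm1 loss and a difference between the cultures' origins cannot be told apart. In bulk RNA, fewer cells of a kind and less RNA per cell cannot be told apart either. Whether replicates came from separate cultures is not in the labels, so p-values measure the spread between these libraries, which may be technical.

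Atf4, the factor at the head of the pathway, rose a little over 2-fold in both genotypes. It stood at 762 and 778 CPM in KO starved, 249 and 432 CPM in KO rich, 732 and 828 CPM in WT starved and 333 and 359.7 CPM in WT rich libraries. The KO and WT starved libraries overlapped, and the KO rich pair lay on either side of the WT rich pair. With starvation Atf4 changed by 1.18 ± 0.25 in KO cells and 1.17 ± 0.24 in WT cells (log2 fold change ± SE; adjusted p = 0.0192 and 0.0110, edgeR quasi-likelihood test with Benjamini-Hochberg adjustment over all genes tested). The KO call was lost under 7 of 17 other settings, which left out 1 WT or KO starved library or kept the 4 KO libraries alone. The difference between these responses was 0.01 ± 0.34 (adjusted p = 1.00), and it was -0.29 without KO rich replicate 1 and 0.47 without KO rich replicate 2, opposite in direction and each past the threshold (adjusted p = 0.0163 and 0.000132). Against WT, KO cells differed by -0.02 ± 0.24 after starvation and by -0.02 ± 0.24 in rich medium (adjusted p = 0.956 and 0.944).

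Ddit3, which encodes CHOP, showed the largest rise of the 10 in WT cells and a smaller one in KO cells. Its level was 205 and 187 CPM in KO starved, 19.2 and 23.3 CPM in KO rich, 476 and 543 CPM in WT starved and 19.4 and 19.6 CPM in WT rich libraries. The rich groups overlapped, and each KO starved library lay below each WT starved library. The starvation response was 3.20 ± 0.16 in KO cells and 4.71 ± 0.17 in WT cells, or 9.17-fold and 26.1-fold (adjusted p = 0.000251 and 4.55e-05). The response was 1.51 ± 0.21 smaller in KO cells on the log2 scale, a difference that passed the test (log2 difference -1.51, adjusted p = 0.00554). After starvation KO cells had 0.384 of the WT level (log2 fold change -1.38 ± 0.14, adjusted p = 0.000238), whereas in rich medium the fold change was 0.13 ± 0.15 (adjusted p = 0.504). In the annotation of a later mouse genome assembly the Ddit3 locus overlaps Mars and Mbd6, and use of strand in the authors' counting was not stated. Neither neighbour passed the test for starvation: Mars had log2 fold changes of 0.71 in KO and 0.45 in WT cells (adjusted p = 0.159 and 0.311) and Mbd6 had 0.44 and -0.16 (adjusted p = 0.344 and 0.727).

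The dimer partners Cebpb and Cebpg were both higher in KO than in WT cells after starvation. Cebpb, a C/EBP factor of inflammation and differentiation, had 183 and 189.6 CPM in KO starved, 88.2 and 263 CPM in KO rich, 75.6 and 67.6 CPM in WT starved and 41.7 and 28.4 CPM in WT rich libraries. Every KO library was above every WT library, and the KO rich pair spanned the KO starved pair. Its level in KO over WT cells was 1.38 ± 0.45 after starvation and 2.33 ± 0.47 in rich medium on the log2 scale (adjusted p = 0.0357 and 0.00663). Its response to starvation did not pass the test in either genotype in the fit of all 8 libraries. The response was 0.08 ± 0.45 in KO and 1.03 ± 0.45 in WT cells (adjusted p = 0.938 and 0.124). Each WT starved library was above each WT rich library. The WT rise passed when only the 4 WT libraries were fitted and when both KO rich libraries were left out. The KO value turned with the library left out, to -0.48 without KO rich replicate 1 and 1.09 without KO rich replicate 2.

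Cebpg, a small C/EBP protein without an activation domain of its own that pairs with ATF4, stood higher in KO than in WT starved cells. Its level was 98.2 and 93.4 CPM in KO starved, 73.3 and 59.1 CPM in KO rich, 45.8 and 44.7 CPM in WT starved and 47.6 and 53.7 CPM in WT rich libraries. The 4 groups did not overlap, and the order from high to low was KO starved, KO rich, WT rich and WT starved. The response was 0.54 ± 0.15 in KO cells, which just passed (adjusted p = 0.0474) and no longer passed under 13 of 17 other settings, and -0.16 ± 0.15 in WT cells (adjusted p = 0.438). KO exceeded WT by 1.08 ± 0.15 after starvation (2.12-fold, adjusted p = 0.000867) and by 0.38 ± 0.15 in rich medium (adjusted p = 0.0739).

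Atf3 stood out by its near absence from KO cells. This bZIP factor is induced by many stresses and acts mostly as a repressor. It had 52 and 48 counts in KO starved libraries and 0 and 2 counts in KO rich libraries, against 2179 and 2739 counts in WT starved and 332 and 391 counts in WT rich libraries. As levels these were 2.09 and 2.07 CPM in KO starved libraries, 0 and 0.0928 CPM in KO rich, 86.8 and 94.8 CPM in WT starved and 15.4 and 13.9 CPM in WT rich libraries, and 0 counts in KO rich replicate 1 allow a level of up to 0.369 CPM. No KO library, starved or rich, reached the lowest WT rich library. Summed over a group, the KO to WT ratio was 0.0228 after starvation (exact 95% interval 0.0185 to 0.0278, for counting error only) and 0.00462 in rich medium (0.000558 to 0.0167). Both differences passed the test (adjusted p = 5.78e-06 and 1.50e-05). From its low base Atf3 still rose with starvation in KO cells, where the ratio of starved to rich counts was 30.8 (8.31 to 258), and it rose 6.25-fold (5.78 to 6.76) in WT cells (adjusted p = 0.00142 and 0.000297). The test of the difference between the responses gave adjusted p = 0.0464, on only 2 counts in the KO rich group, and the call was lost under 9 of 16 other settings.

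Atf5, a close relative of ATF4 whose mRNA is likewise translated under eIF2 phosphorylation, rose in WT cells and had no call in KO cells. It had 96.3 and 89.9 CPM in KO starved, 67.9 and 182 CPM in KO rich, 182 and 217 CPM in WT starved and 61.1 and 67.5 CPM in WT rich libraries. The KO rich replicates lay on either side of the KO starved pair, and the higher of them matched the lower WT starved library. These levels are of 1 of the 2 Atf5 transcripts counted, the one with the higher total. Its RefSeq record is of the non-coding type. The response of Atf5 was -0.43 ± 0.39 in KO cells (adjusted p = 0.478) and 1.63 ± 0.40 in WT cells (adjusted p = 0.0200). The KO value was -0.95 without KO rich replicate 1 and 0.46 without KO rich replicate 2, so its direction rested on the library chosen. The difference between the responses was -2.07 ± 0.56 and missed the threshold (adjusted p = 0.0531). It was -2.56 without KO rich replicate 1 and -1.17 without KO rich replicate 2. It passed with RLE scaling, without the filter, with a filter of 5 CPM in 2 libraries, with DESeq2 and with the other transcript. It did not pass with total counts, limma-voom or a replicate block. After starvation Atf5 was lower in KO than in WT cells, by -1.10 ± 0.39 (adjusted p = 0.0486), a call lost when any 1 of the 6 other libraries, those outside the KO rich group, was left out. In rich medium KO over WT was 0.97 ± 0.39 for Atf5 and did not pass the test (adjusted p = 0.0846). Among the fits of all 8 libraries, that value passed with DESeq2 and with the other transcript. Over all other settings it ran from 0.07 to 1.46. KO rich replicate 1, at 67.9 CPM, lay close to the WT rich pair, and KO rich replicate 2, at 182 CPM, lay far above it. The Atf5 locus overlaps Nup62 and Il4i1 in the later assembly. Nup62 had log2 fold changes of 0.13 and 0.22 with starvation in KO and WT cells (adjusted p = 0.778 and 0.588), and Il4i1, at group means of up to 9.79 CPM, rose by 2.73 and 1.34 (adjusted p = 0.00344 and 0.0165).

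**Figure D1:**
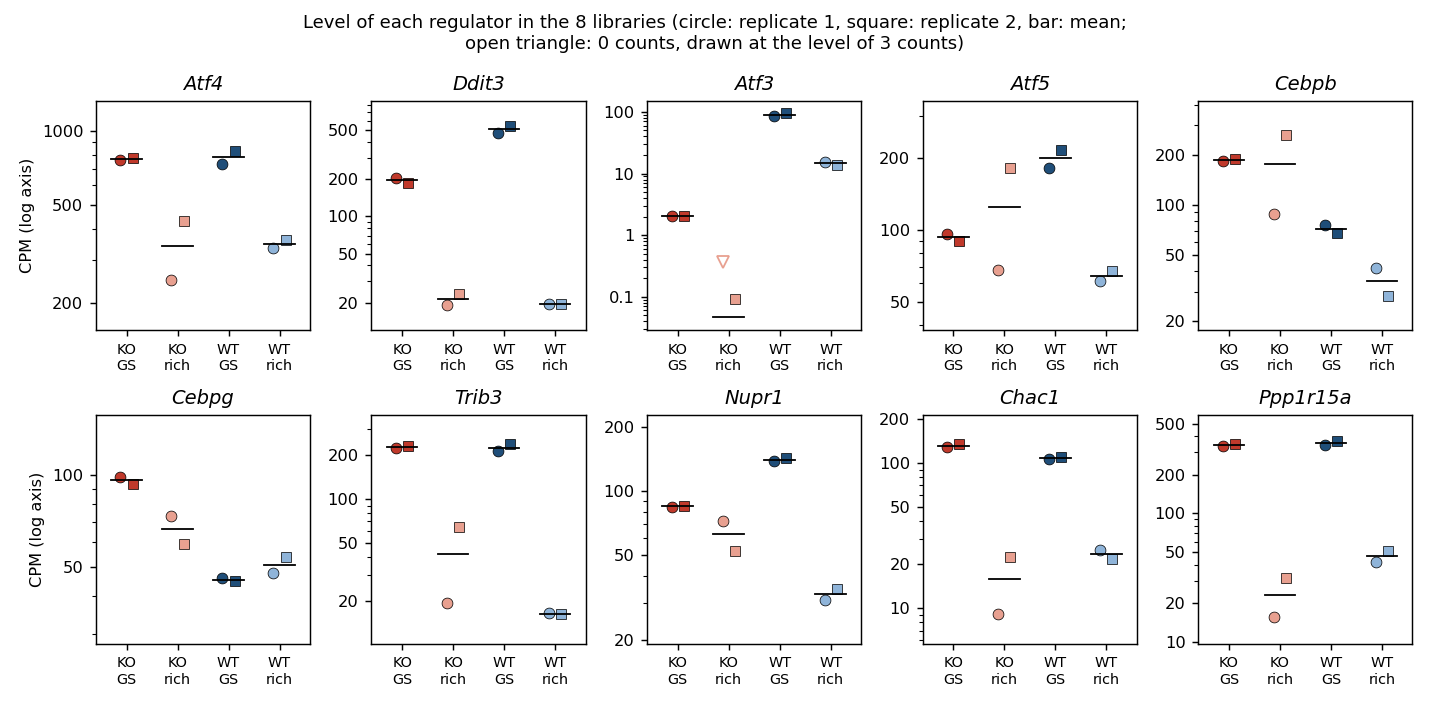
Level of each of the 10 genes in CPM (log axis) in KO starved (KO GS), KO rich, WT starved (WT GS) and WT rich cells; symbols are the 2 libraries of a group and bars their mean. Ddit3 stands at 205 and 187 CPM in KO starved against 476 and 543 CPM in WT starved libraries, Atf3 is near 0 in KO cells, and the starved groups overlap for Trib3, Ppp1r15a and Atf4.

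The feedback genes Trib3 and Ppp1r15a rose in both genotypes to starved levels that overlapped. Trib3, the pseudokinase that restrains ATF4 and CHOP, had 224 and 231 CPM in KO starved, 19.2 and 64.0 CPM in KO rich, 213 and 237 CPM in WT starved and 16.4 and 16.2 CPM in WT rich libraries. The starved groups overlapped, and the KO rich replicates were both above the WT rich pair but far from each other. Trib3 rose by 2.43 ± 0.47 in KO and 3.79 ± 0.50 in WT cells (adjusted p = 0.0151 and 0.00197), and the difference of -1.36 ± 0.64 did not pass (adjusted p = 0.205). In KO over WT cells it was 0.01 ± 0.44 after starvation (adjusted p = 0.983) and 1.37 ± 0.46 in rich medium (adjusted p = 0.0469), the second being 0.23 without KO rich replicate 2 and 1.93 without KO rich replicate 1. That call in rich medium was lost under 11 of 17 other settings.

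Ppp1r15a, which encodes GADD34, showed the largest rise in KO cells among the genes with more than 2 counts in the KO rich group. Its level was 337 and 345 CPM in KO starved, 15.5 and 31.3 CPM in KO rich, 340.0 and 367 CPM in WT starved and 41.7 and 50.8 CPM in WT rich libraries. The starved groups overlapped, and both KO rich libraries were below both WT rich libraries. It rose by 3.84 ± 0.32 in KO cells, or 14.3-fold, and by 2.93 ± 0.30 in WT cells, or 7.64-fold (adjusted p = 0.00111 and 0.000825), with a difference of 0.91 ± 0.41 (adjusted p = 0.184). KO over WT was -0.05 ± 0.28 after starvation (adjusted p = 0.892) and -0.96 ± 0.29 in rich medium (adjusted p = 0.0330). The call in rich medium held under only 10 of 17 other settings, over which the value ran from -1.59 to -0.61.

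Chac1 and Nupr1 are effectors of the same response. Chac1 encodes an enzyme that breaks down glutathione, and it had 129 and 134 CPM in KO starved, 9.11 and 22.6 CPM in KO rich, 106 and 109 CPM in WT starved and 25.2 and 21.9 CPM in WT rich libraries. Each KO starved library was above each WT starved library, while the rich groups overlapped. It rose by 3.01 ± 0.37 in KO and 2.19 ± 0.35 in WT cells (adjusted p = 0.00344 and 0.00401), with a difference of 0.82 ± 0.48 (adjusted p = 0.303). KO over WT was 0.29 ± 0.33 after starvation and -0.53 ± 0.35 in rich medium (adjusted p = 0.495 and 0.251). The value after starvation passed when only the 4 starved libraries were fitted and when both KO rich libraries were left out. Nupr1 encodes a small stress-induced nuclear protein, and it had 84.2 and 85.5 CPM in KO starved, 72.7 and 52.5 CPM in KO rich, 138 and 142 CPM in WT starved and 30.9 and 34.9 CPM in WT rich libraries. The groups did not overlap, and both KO groups lay between the WT groups. The change of Nupr1 in KO cells, 0.44 ± 0.17, did not pass (adjusted p = 0.121), and in WT cells it rose by 2.09 ± 0.18 (adjusted p = 0.000461). The difference between the responses, -1.65 ± 0.25, passed (adjusted p = 0.00731). KO cells were lower by -0.72 ± 0.17 after starvation and higher by 0.93 ± 0.17 in rich medium (adjusted p = 0.00982 and 0.00500).

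Promoter windows were searched because the genes that rose together are known targets of ATF4 dimers. RefSeq windows of 300 bases (250 before to 50 after the annotated start, build GRCm38.p6) were at hand for all 10 genes, in 11 windows. The C/EBP-ATF response element, searched as TGATGNAA on both strands, occurred in the windows of 4 genes, against 3.97% of all 32851 windows. These 4 were Atf3, Chac1, Nupr1 and Trib3. The cAMP response element, searched as TGACGTCA, which reads the same on both strands, occurred in 1, Ppp1r15a, against 1.79% of all windows, and the ER stress response element, searched as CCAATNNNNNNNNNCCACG on both strands, in 0, against 0.119%. A match is a run of letters and not a measured binding site, and genes without a match may hold such letters outside the window. The 5 windows with a match are shown 5′ to 3′ along the gene, with the matched letters in capitals. The match begins 110 bases before the start in Atf3 and in Nupr1, 193 bases before it in Chac1, 12 bases before it in Ppp1r15a, and lies just after the start in Trib3.
Atf3, chr1:191183284-191183583, minus strand: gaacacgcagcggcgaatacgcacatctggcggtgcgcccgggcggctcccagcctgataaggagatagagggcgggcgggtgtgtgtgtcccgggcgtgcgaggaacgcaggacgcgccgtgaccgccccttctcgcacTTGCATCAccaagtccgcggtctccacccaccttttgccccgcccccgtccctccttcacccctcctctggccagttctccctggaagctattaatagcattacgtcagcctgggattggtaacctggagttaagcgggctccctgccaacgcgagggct
Nupr1, chr7:126625421-126625720, minus strand: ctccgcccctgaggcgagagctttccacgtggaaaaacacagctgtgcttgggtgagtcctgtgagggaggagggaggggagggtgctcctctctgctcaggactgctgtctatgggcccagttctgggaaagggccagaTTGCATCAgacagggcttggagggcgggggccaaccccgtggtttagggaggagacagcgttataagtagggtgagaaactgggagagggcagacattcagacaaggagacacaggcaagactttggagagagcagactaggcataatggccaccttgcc
Chac1, chr2:119350992-119351291, plus strand: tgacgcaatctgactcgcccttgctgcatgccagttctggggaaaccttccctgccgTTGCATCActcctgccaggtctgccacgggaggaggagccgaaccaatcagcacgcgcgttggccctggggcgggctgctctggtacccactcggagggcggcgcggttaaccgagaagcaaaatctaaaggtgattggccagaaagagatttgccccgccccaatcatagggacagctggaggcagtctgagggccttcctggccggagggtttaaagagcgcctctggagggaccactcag
Trib3, chr2:152344011-152344310, minus strand: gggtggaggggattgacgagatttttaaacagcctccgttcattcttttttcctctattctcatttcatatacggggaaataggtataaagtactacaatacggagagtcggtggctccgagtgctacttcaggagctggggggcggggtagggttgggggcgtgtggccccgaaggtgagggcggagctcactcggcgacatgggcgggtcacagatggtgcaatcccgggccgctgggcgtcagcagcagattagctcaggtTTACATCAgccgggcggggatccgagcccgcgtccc
Ppp1r15a, chr7:45526219-45526518, minus strand: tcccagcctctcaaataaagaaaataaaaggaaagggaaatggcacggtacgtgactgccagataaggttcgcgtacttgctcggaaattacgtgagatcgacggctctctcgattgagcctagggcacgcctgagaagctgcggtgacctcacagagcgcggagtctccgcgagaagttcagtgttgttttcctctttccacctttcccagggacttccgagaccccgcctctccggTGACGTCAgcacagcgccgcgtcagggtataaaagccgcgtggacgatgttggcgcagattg

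In Atf3, Chac1 and Nupr1 the capitals read the same 8 letters, TTGCATCA, the reverse complement of the element with C in the free position. In KO over WT cells after starvation, Nupr1 was lower (log2 fold change -0.72 ± 0.17) and Atf3 was at 0.0228 of the WT level. The value of Chac1, 0.29 ± 0.33, did not pass the test in the fit of all 8 libraries. It passed in the fit of the 4 starved libraries.

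With starvation, 7 of the 10 genes rose in KO cells and 8 in WT cells, and 0 fell in either. In KO cells 8.44% of all genes tested rose and 9.78% fell (18.2% together), and in WT cells 14.8% rose and 18.0% fell (32.9% together). The median log2 fold change of the 10 was 1.80 in KO and 2.14 in WT cells, beside 0 over all genes in each, and without Atf3, whose KO value rests on 2 counts, it was 1.18 and 2.09. Atf4, Ddit3, Atf3, Trib3, Chac1 and Ppp1r15a rose in both genotypes, Cebpg in KO cells, and Atf5 and Nupr1 in WT cells. The 0 genes lower held at an unadjusted p under 0.05 (0 in each genotype) and with DESeq2 and limma-voom (0 each). In KO cells the count of rises was 4 without either KO starved library, and 8 with 2 falls (Atf5 and Cebpb) or 10 without KO rich replicate 1 or 2. A fit of the 4 KO libraries alone called 0 of all genes (smallest adjusted p 0.0583, 2803 genes at an unadjusted p under 0.05, among them 6 of the 10 genes higher). In WT cells the count was 5 without WT rich replicate 2 and 6 without any 1 of the other WT libraries, where the calls of Atf4 and Atf5 were lost each time. It was 9, with Cebpg lower, without either KO rich library.

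**Figure D2:**
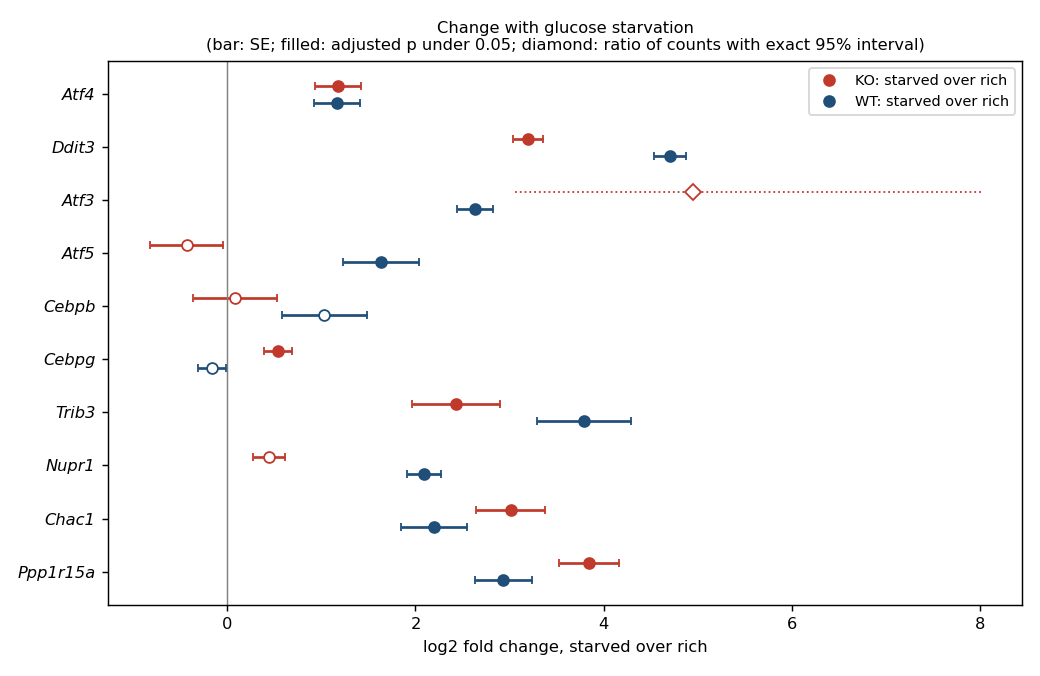
Log2 fold change of starved over rich cells with its SE for each gene, KO above WT; filled circles passed at adjusted p under 0.05, and the diamond is the ratio of Atf3 counts in KO cells with its exact 95% counting interval. Atf4 has fitted values of 1.18 in KO and 1.17 in WT cells. Over other settings its KO value ran from 0.86 to 1.64. Ddit3 (3.20 and 4.71) and Nupr1 (0.44 and 2.09) lie lower in KO cells.

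Between genotypes, 2 of the 10 genes were higher in KO than in WT cells after starvation (Cebpb and Cebpg) and 4 were lower (Ddit3, Atf3, Atf5 and Nupr1), at a background of 27.8% of all genes higher and 26.8% lower. In rich medium 3 were higher (Cebpb, Trib3 and Nupr1) and 2 lower (Atf3 and Ppp1r15a), at a background of 23.4% higher and 20.6% lower. Together 6 and 5 of the 10 passed, near the background of 54.6% and 44.0% of all genes, and the medians of the 10, -0.04 and 0.26, lay close to those of all genes, -0.02 and 0.00. Nupr1 was below WT in starved cells and above it in rich cells. Ddit3, Atf3 and Cebpg kept their calls after starvation under all 18 other settings, whereas Cebpb and Atf5 lost theirs without any 1 of the 6 libraries outside the KO rich group, leaving 1 gene higher, and Nupr1 without WT starved replicate 2 or either KO starved library, leaving 2 genes lower. In rich medium the count higher was 1 without either WT rich library and 5 without KO rich replicate 1, and the count lower was 1 without any 1 of the 6 libraries outside the KO rich group and 4 without KO rich replicate 2.

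**Figure D3:**
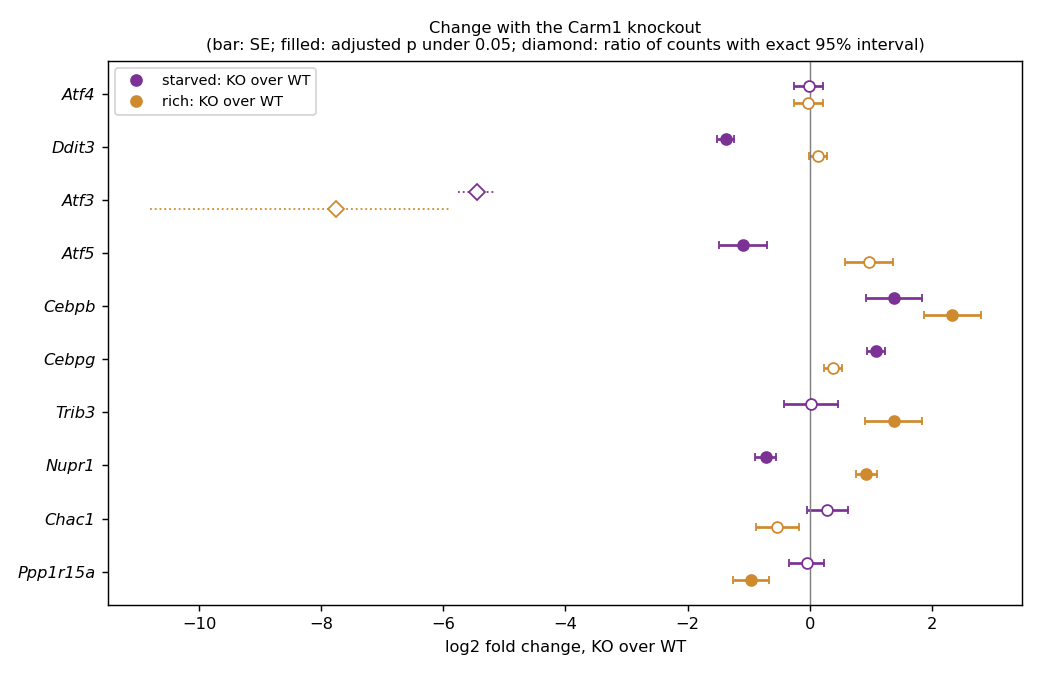
Log2 fold change of KO over WT cells with its SE for each gene, starved above rich; filled circles passed at adjusted p under 0.05, and diamonds are ratios of Atf3 counts with exact 95% counting intervals. Atf3 lies far to the left (ratios 0.0228 and 0.00462), Cebpb lies to the right in both media (1.38 and 2.33), and Atf4 lies at 0.

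The response to starvation differed between the genotypes for 3 of the 10 genes, being higher in KO cells for 1 (Atf3) and lower for 2 (Ddit3 and Nupr1), where 7.42% and 5.91% of all genes tested had a higher and a lower response (13.3% together). The comparisons within each genotype share their libraries with these differences. The count lower was 0 without KO starved replicate 2, 1 without KO starved replicate 1, WT starved replicate 2 or WT rich replicate 1, and 6 and 3 without KO rich replicate 1 and 2. The count higher was 0 without any 1 of the 6 libraries outside the KO rich group, and 4 and 5 without KO rich replicate 1 and 2. Among the 7 that did not pass, Atf5, Trib3 and Cebpb had values from -2.07 to -0.95 and Chac1, Ppp1r15a and Cebpg values from 0.70 to 0.91.

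Counts of a gene per 100 Atf4 counts within a library give a measure that does not depend on how libraries are scaled. Gene lengths were not used, so these ratios are compared between libraries and not between genes. For Ddit3 the ratio was 26.9 and 24.0 in KO starved, 7.72 and 5.39 in KO rich, 65.1 and 65.5 in WT starved and 5.82 and 5.46 in WT rich libraries. Both KO starved libraries lay far below both WT starved libraries, and the rich groups overlapped. Trib3 had 29.4 and 29.7 in KO starved, 7.72 and 14.8 in KO rich, 29.2 and 28.6 in WT starved and 4.93 and 4.50 in WT rich libraries. Ppp1r15a had 44.2 and 44.4 in KO starved, 6.23 and 7.24 in KO rich, 46.5 and 44.3 in WT starved and 12.5 and 14.1 in WT rich libraries. For Ppp1r15a the starved groups overlapped, and for Trib3 the KO starved libraries lay just above the WT starved libraries. Nupr1 had 11.1 and 10.98 in KO starved, 29.2 and 12.2 in KO rich, 18.8 and 17.2 in WT starved and 9.26 and 9.69 in WT rich libraries, and Cebpb had 24.0 and 24.4 in KO starved, 35.5 and 61.0 in KO rich, 10.3 and 8.17 in WT starved and 12.5 and 7.90 in WT rich libraries. The KO rich libraries lay far apart for both genes, and the Cebpb ratio was higher in every KO library than in every WT library.

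**Figure D4:**
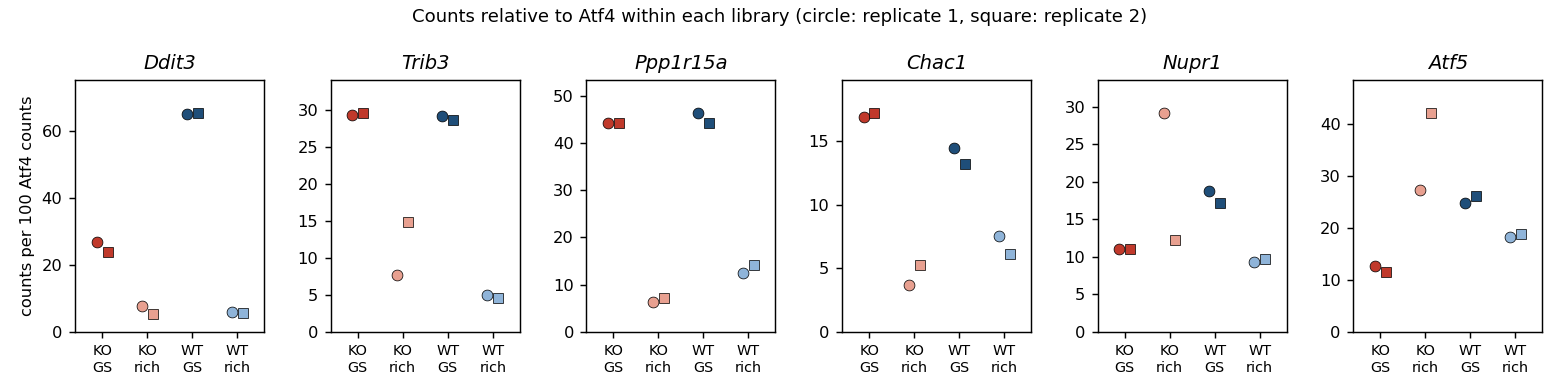
Counts of 6 genes per 100 Atf4 counts within each library, in KO starved (KO GS), KO rich, WT starved (WT GS) and WT rich cells; symbols are single libraries. Trib3 lies at 28.6 to 29.7 and Ppp1r15a at 44.2 to 46.5 in the 4 starved libraries, while Ddit3 lies at 24.0 to 26.9 in KO starved and 65.1 to 65.5 in WT starved libraries.

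Targets of ATF4 outside the 10 genes rose in both genotypes. Of 45 such genes (amino acid synthesis and transport, folate enzymes, tRNA synthetases and others, all tested), 29 rose and 0 fell in KO cells, and 36 rose and 0 fell in WT cells, with median log2 fold changes of 0.88 and 1.22. At an unadjusted p under 0.05, 1 gene was lower in KO and 0 in WT cells, DESeq2 called 1 and 0 lower, and limma-voom 0 and 0. Herpud1, which acts in the degradation of misfolded ER proteins, averaged 251 ± 5.72 CPM in KO starved and 49.4 ± 9.95 CPM in KO rich cells, 645 ± 2.47 CPM in WT starved and 55.0 ± 5.79 CPM in WT rich cells (SD, n = 2 each). Its rise was 2.34 ± 0.17 in KO and 3.55 ± 0.18 in WT cells. The glycine transporter Slc6a9 rose by 1.59 ± 0.20 and 3.12 ± 0.21 and the mitochondrial folate enzyme Aldh1l2 by 0.70 ± 0.13 and 2.24 ± 0.14 in KO and WT cells. The transsulfuration enzyme Cth rose by 2.26 ± 0.20 and 3.04 ± 0.21, and the amino acid transporter chain Slc3a2 by 2.04 ± 0.19 and 2.49 ± 0.19. The response was lower in KO cells for 11 of the 45 and higher for 0, against 5.91% and 7.42% of all genes; at an unadjusted p under 0.05, 2 were higher, and DESeq2 and limma-voom called 0 higher. Herpud1, Slc6a9 and Aldh1l2 were among the 11 (-1.21 ± 0.23, -1.53 ± 0.28 and -1.53 ± 0.19, adjusted p = 0.0174, 0.0158 and 0.00395), and the calls of Herpud1 and Slc6a9 were lost without any 1 of the 6 libraries outside the KO rich group. Cth and Slc3a2 were not among them (-0.78 ± 0.28 and -0.46 ± 0.26, adjusted p = 0.111 and 0.284). Slc6a9 and Aldh1l2 were named for their small p in WT cells, Cth and Slc3a2 for theirs in KO cells, and Herpud1 for both. The differences are built from these same responses, so for the named genes they are description only. After starvation 12 of the 45 were higher and 19 lower in KO than in WT cells (26.7% and 42.2%, beside 27.8% and 26.8% of all genes). The counts moved with single libraries: without KO starved replicate 2 the rises in KO cells came to 5, without either WT rich library those in WT cells to 23, without KO starved replicate 2 the genes lower in KO after starvation to 5, and without any 1 of 3 WT libraries (rich replicates 1 and 2 and starved replicate 1) the lower responses to 1.

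**Figure D5:**
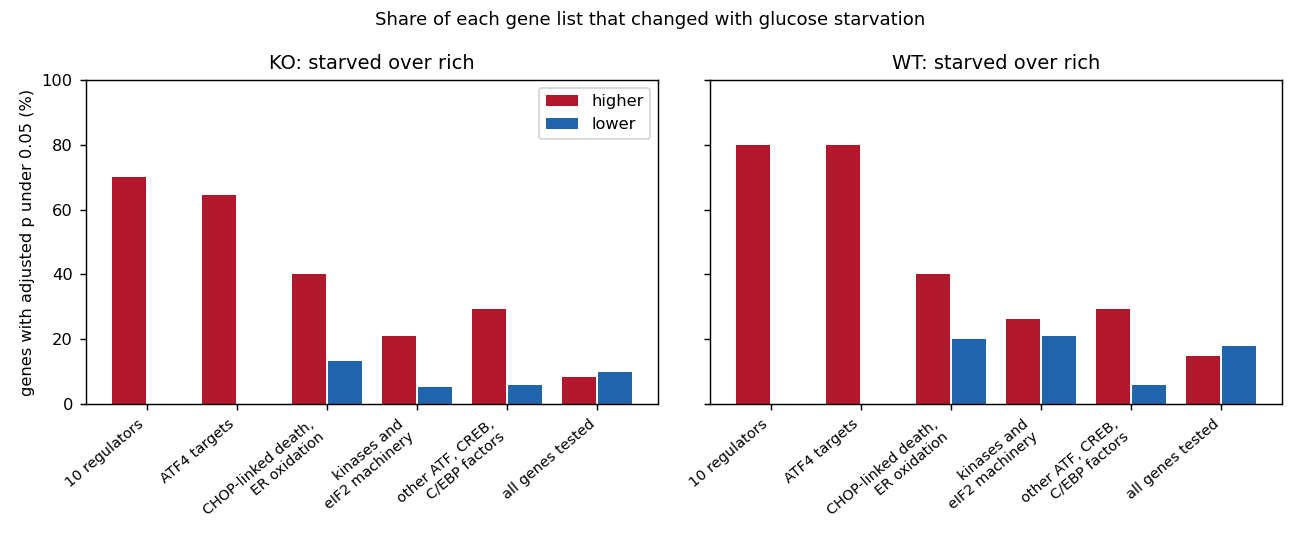
Share of genes (%) that were higher or lower with starvation at adjusted p under 0.05 in KO (left) and WT (right) cells, for the 10 regulators, 4 lists of related genes and all genes tested. The regulators (70% and 80% higher) and ATF4 targets (64.4% and 80% higher) stand above the other lists and all genes (8.44% and 14.8% higher).

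In other parts of the pathway calls went in both directions; over all genes 8.44% rose and 9.78% fell in KO cells, and 14.8% rose and 18.0% fell in WT cells. Of 19 genes of the eIF2 kinases, eIF2, its exchange factor eIF2B and linked sensors, 4 rose and 1 fell in KO cells, and 5 rose and 4 fell in WT cells. The ER stress kinase PERK (gene Eif2ak3) rose by 0.51 ± 0.13 and 0.95 ± 0.13 and the eIF2B subunit Eif2b3 by 1.11 ± 0.12 and 0.80 ± 0.12 in KO and WT cells, while the double-stranded RNA kinase PKR (gene Eif2ak2) had log2 fold changes of -1.14 ± 0.27 and -2.06 ± 0.28. The ER stress sensors Ern1 and Atf6 rose by 1.35 ± 0.16 and 0.90 ± 0.16 in KO cells and by 0.69 ± 0.16 and 1.40 ± 0.16 in WT cells. Of 17 tested ATF, CREB and C/EBP factors outside the 10 genes (18 listed), 5 rose and 1 fell in each genotype. Xbp1, the factor activated by the sensor Ern1 encodes, rose by 1.69 ± 0.15 and 1.09 ± 0.15, and the ER-membrane factor Creb3l1 changed by -1.21 ± 0.16 and -1.36 ± 0.16 in KO and WT cells. Of 15 genes linked to CHOP, death and ER oxidation, 6 rose and 2 fell in KO cells, and 6 rose and 3 fell in WT cells. Gadd45a, a growth arrest gene, rose by 3.55 ± 0.15 in KO and 2.71 ± 0.14 in WT cells, with a larger response in KO cells (0.84 ± 0.19, adjusted p = 0.0325). Bcl2l11, which encodes the death protein BIM, changed by -1.83 ± 0.19 in KO and -0.36 ± 0.18 in WT cells (adjusted p = 0.00213 and 0.172), with a difference of -1.46 ± 0.26 (adjusted p = 0.0141). The death effector Bak1 changed by -0.44 ± 0.11 and -1.42 ± 0.11 in KO and WT cells (difference 0.98 ± 0.16, adjusted p = 0.00932). Bak1 was named for its small p in WT cells, Bcl2l11 for its small p in KO cells, and Gadd45a for both. Their differences are built from these same responses and are description only. These 3 differences, of Gadd45a, Bcl2l11 and Bak1, lost their calls without any 1 of the 6 libraries outside the KO rich group. Pmaip1, which encodes the death protein NOXA, had 0 counts in both KO starved and 0 to 1 in KO rich libraries, against 786 to 869 in WT starved and 50 to 72 in WT rich libraries. Its rise in WT cells was 3.64 ± 0.22 (adjusted p = 0.000316). In KO cells the calls of Eif2ak3, Eif2ak2 and Bak1 were lost without any 1 of the 6 libraries outside the KO rich group. Those of Atf6, Creb3l1 and Aldh1l2 were lost without either KO starved library. Those of Ern1 and Slc6a9 were lost without KO starved replicate 2, and that of Eif2b3 without KO starved replicate 1. In WT cells Ern1 lost its call without either WT rich library or without WT starved replicate 1. Eif2b3 lost its call in WT cells without WT rich replicate 2. The counts for these 3 lists also moved by over 1.5 times with single libraries, rises of the eIF2 list in KO cells running from 1 without either KO starved library to 10 without either KO rich library.

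The genes whose pattern lay nearest to that of Atf4 and of Ddit3 were ranked among 11268 other genes with at least 5 CPM in a group, by the root mean square difference of mean-centred log2 CPM over the 8 libraries. Nearest to Atf4 were Cox18, Tmem150a and Arhgef2, at 0.09, 0.11 and 0.12. Nearest to Ddit3 were Acot2, Soat2 and Herpud1, at 0.45, 0.50 and 0.51. Within the 10, Nupr1 and Atf5 lay nearest to Atf4 (0.54 and 0.58), and Ppp1r15a and Trib3 nearest to Ddit3 (0.71 and 0.79). Acot2, a mitochondrial acyl-CoA thioesterase, rose by 2.41 ± 0.21 in KO and 3.76 ± 0.21 in WT cells, values given as a description since the gene was picked for its pattern in these libraries.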

How the data were processed

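RNA of 8 libraries was analysed; 4 chromatin immunoprecipitation libraries are not analysed here. The authors deposited raw counts, 1 row for each RefSeq transcript. The submitters' processing notes name TopHat2 2.0.9, bedtools and mouse build mm9. The use of strand and of multi-mapped reads was not stated. Columns were matched to samples by name, and 0 columns were left over. Of 31055 transcripts of 23366 symbols, the one with the highest total stood for its symbol.

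Counts were filtered with filterByExpr of edgeR 4.0.16 (R 4.3.3), scaled with TMM factors, and fitted over all 8 libraries with a mean per group and 1 shared spread (coefficient of variation 18.5%). Of this fit, 5 contrasts were tested by quasi-likelihood, adjusted by Benjamini-Hochberg over 13882 genes, with a threshold of 0.05. The SE is the log2 fold change divided by the square root of F. Levels are CPM on TMM-scaled totals, at which 3 counts equal 0.104 to 0.369 CPM. The fit was also run on simulated counts with the same spread in all 8 libraries. That run did not cover the wider spread of the KO rich pair. Since reads carry no molecular identifiers, exact intervals cover counting error only.

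The 10 genes, the lists and the tests were chosen with earlier results of these data known. All 10 genes are named, with Carm1, the 3 genes of each list with the smallest p for starvation in each genotype, and the 3 genes nearest to Atf4 and to Ddit3. Other scalings, filters, tools (DESeq2 1.42.0, limma-voom of limma 3.58.1), transcripts and sets of libraries were tried. Promoter sequences are RefSeq's, build GRCm38.p6.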

Additional observations from a re-analysis of the deposited data

Results flagged for a closer look

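For 3 of the 10 genes the change with starvation differed between the genotypes by the test of the difference itself (KO response minus WT response, log2, edgeR quasi-likelihood test). For Ddit3 the difference was -1.51 ± 0.21 (adjusted p = 0.00554), and without KO starved replicate 2 the adjusted p was 0.0522. For Nupr1 it was -1.65 ± 0.25 (adjusted p = 0.00731), with adjusted p of up to 0.0566 when a single library was left out. For Atf3 the fitted difference was 2.22 ± 0.57 (adjusted p = 0.0464), a value that depends on the 2 counts of the KO rich group and reached an adjusted p of 0.145 under another setting.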

How the results depend on the processing

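Counts of calls moved with single libraries and with the set of libraries fitted. With 1 library left out, all genes called ran from 265 to 8409 (starvation in KO), 1580 to 9561 (starvation in WT), 5127 to 11435 (KO against WT, starved), 3369 to 10336 (KO against WT, rich) and 452 to 8020 (difference of responses). Of the 10 genes, those higher ran from 4 to 10, 5 to 9, 1 to 3, 1 to 5 and 0 to 5 in that order, and those lower from 0 to 2, 0 to 1, 2 to 4, 1 to 4 and 0 to 6. Fits without a KO rich library gave the high ends. In them the KO rich group adds no spread to the estimate that all groups share, and its lone library is assumed to vary like the others. With all 8 libraries, the spread of the KO rich pair enters the SE of every contrast, including those that hold no KO rich library. Directions changed with the KO rich replicates: Atf5 with starvation in KO ran from -0.95 to 0.46, Cebpb from -0.48 to 1.09, Atf4 in KO against WT rich from -0.49 to 0.27, and the Atf4 difference of responses from -0.29 to 0.47.

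Fitting only the 4 libraries compared called 0 genes for starvation in KO (0 of the 10 higher), 9332 for starvation in WT and 3245 for KO against WT in rich medium (1 of the 10 higher, 1 lower). Leaving out both KO rich libraries, chosen after seeing the data, called 9508 genes for starvation in WT, with 1 of the 10 lower. The fit of all 8 libraries called 4561 genes there. Total-count scaling left 1 gene higher in KO against WT after starvation, where it moved the median of all genes to -0.14. For the difference of responses, total counts, DESeq2 and the replicate block left 0 genes higher, and DESeq2 called 2880 genes. Replicate numbers did not pair the samples (correlations of -0.0256 to 0.0629), and with the block the calls went to 2111, 4123, 7361, 5802 and 1490 in the same order. The causes were not tested. KO rich replicate 1 has the least depth, which limits values near 0.369 CPM.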

Other observations

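The C/EBP factors Cebpd and Cebpa and the CHOP-linked gene Car6, chosen after their values were seen, are given as values. Cebpd had 1250 to 1286 counts in KO starved and 370 to 2889 in KO rich libraries, against 159 to 160 in WT starved and 215 to 276 in WT rich libraries, and was higher in KO cells in both media (log2 fold change 3.15 after starvation and 3.19 in rich medium, adjusted p = 0.00118 and 0.00156). Cebpa had 0 counts in all 4 KO libraries, against 64 to 93 in WT starved and 18 to 27 in WT rich libraries. Car6, a carbonic anhydrase gene induced by CHOP, had 274 to 328 counts in KO starved and 4 to 33 in KO rich libraries, against 129 to 142 in WT starved and 0 in both WT rich libraries.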
